A study of Homo sapiens with 31 samples.

Results

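The genes of the DNA replication machinery were described across RNA-sequencing libraries of cell lines that the study used as models of ovarian cancer. The set holds 46 of the 19221 genes in the table, chosen by name from the known parts of the machinery, with earlier results of these data known: the origin recognition complex, licensing factors, the MCM helicase, the factors that switch it on, the sliding clamp and its loader, RPA, 3 DNA polymerases, fork protection proteins and ribonucleotide reductase. All 46 were found and all passed the filter on low values in both comparisons. C13* is a cisplatin-resistant line that is proficient in homologous recombination, and A2780 is an ovarian line used here as the parent for resistance to olaparib, an inhibitor of the repair enzyme PARP. The study concedes that the origin of C13* makes its use questionable. It adds that A2780 was reported as an unlikely model of high-grade serous ovarian cancer. There were 31 libraries. C13* cells received a lentivirus with a control shRNA (C13* shCON, n = 7) or with an shRNA directed at CEBPB, which encodes the transcription factor C/EBPβ (C13* shCEBPB, n = 8). A2780 cells labelled as untreated (n = 8) were compared with A2780 OlaR (n = 8), by the labels 1 resistant strain derived from A2780 by culture in rising olaparib, and so a single selected population. The sequence of the shRNA is not given in the labels. All lines were grown in RPMI-1640 with fetal bovine serum. The study calls the libraries of a group biological replicates, and the labels do not say whether they came from separate cultures, so the p-values measure the spread between these libraries, which may be technical.

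A cell copies its DNA once per division. In G1 phase the origin recognition complex, with CDC6 and CDT1, loads rings of MCM2 to MCM7 onto DNA, and geminin (GMNN) blocks CDT1 afterwards so that no origin is used again. In S phase MCM10, CDC45 and the GINS complex turn each ring into an active helicase, RPA coats the single strand, polymerase alpha-primase lays down primers, and polymerases epsilon and delta copy the leading and the lagging strand while held by the clamp PCNA. Many of these genes are known targets of the E2F transcription factors and are transcribed most around the start of S phase, so their mRNA is known to be high in cultures that divide fast.

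The labels were checked first. CEBPB lay at 75.2 to 101 FPKM (median 85.4) in shCON and at 30.2 to 58.7 (49.5) in shCEBPB, without overlap. It lay at 85.6 to 111 FPKM (median 99.7) in A2780 and at 97.1 to 127 (113) in A2780 OlaR, which overlapped. Markers of squamous cells (8 genes, among them KRT5 and TP63) summed to 3136 to 3713 FPKM in shCON and 3007 to 3883 in A2780 OlaR, to 220.3 to 525 in shCEBPB, where 6 of them stayed below 1 in every library, and to 0.647 to 2.25 in A2780, where KRT5 and KRT6A were listed at 0. Simple epithelial markers (7 genes) summed to 2414 to 2680.3, 1785 to 2162, 85.5 to 94 and 2632 to 3171 FPKM in shCON, shCEBPB, A2780 and A2780 OlaR, and mesenchymal markers (7 genes) to 39.7 to 44.5, 353 to 381, 897 to 942 and 31.2 to 34.2. Within the simple epithelial list, 3 genes were higher in shCEBPB than in shCON and 4 lower. KRT19 had a mean FPKM of 1470 in shCON and 0.0306 in shCEBPB, and KRT7 of 8.02 and 583. In shCEBPB, 3 of the 7 stayed below 1 in every library. VIM made up most of the mesenchymal sums of shCEBPB and A2780, with mean FPKM of 342 and 809. Of the 6 mesenchymal markers tested in shCEBPB against shCON, 3 were higher (VIM, ZEB1 and ZEB2) and 3 lower (CDH2, TWIST1 and FN1). Of the 5 tested in A2780 OlaR against A2780, 1 (FN1) was higher and 4 lower. Of 6 immune and stromal markers, PTPRC, the leukocyte antigen CD45, lay at 75.7 to 103 FPKM (median 83.5) in A2780 and at no more than 0.0144 in any library of the other groups, while CD3E was at 0 throughout. The 6 summed to 62.8 to 70.3, 11.2 to 13.9, 83.9 to 112 and 38.1 to 45.8 FPKM in the same order of groups. Different genes made up these sums, since CD68 had means of 65.4, 11.7, 2.22 and 41.9 FPKM in that order. Mullerian and ovarian markers (8 genes) summed to 37.8 to 44.4, 998 to 1104, 14.9 to 18.6 and 29.3 to 40.5 FPKM, again in that order. Of the 5 tested in shCEBPB against shCON, 3 were higher and 2 lower. Mean FPKM in shCEBPB and shCON was 887 and 1.20 for FOLR1, and 0.536 and 6.10 for PAX8. EMX2 and SOX17 were listed at 0 in shCON. Across the 11603 genes tested in both comparisons, the group means of shCON and A2780 OlaR, which the titles give as different cell lines, had a Pearson's r of 0.991. By contrast, r was 0.688 between A2780 and A2780 OlaR, and 0.771 between shCON and shCEBPB. The groups of each comparison therefore differed in markers of cell identity as well as in the labelled treatment, and the part of either in the results below cannot be told apart. The library codes in the labels begin with CS for shCON, R for shCEBPB, O for A2780 and C for A2780 OlaR, and group names below are those of the titles. Whether titles or codes were exchanged between groups was not tested and cannot be told apart from a true likeness of the lines, so every direction below holds for the libraries as titled. One library, shCON replicate 1, has A2780 in a single field of its labels and C13* in its title, and it was kept as shCON. FPKM (fragments scaled to gene length and to the mapped fragments of the library) give no read totals. Steps in low values gave relative depths from 0.865 to 1.21 over the libraries, and the FPKM of a library summed to between 417556 and 454578. Fold changes are on the scale of log2(FPKM + 1), given as differences from the median over every gene tested, which was -0.07 in shCEBPB and -0.12 in A2780 OlaR. The standard error stands after ± and, like the adjusted p-value, is that of limma before this shift, so that a small difference may carry a p-value of the unshifted one. Counts of fold changes of at least 2 were also made before it. Where a called difference moved by over 1.5 times in the libraries numbered 1 to 3 or in those numbered 4 to 8 in their codes, both values are given.

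Promoters were searched because members of the set are known to move together. RefSeq promoters (250 bases before to 50 after the start, GRCh38.p14) were found for 40 of the 46 members. Forms of the E2F site, TTTCCCGC, TTTGGCGC or TTTCGCGC on either strand, were present in 17 of the 40 (42.5%), against 3.72% of the 14514 promoters of genes in the table. CCAAT, the NF-Y site, was present in 26 (65.0%, against 36.3%), and TTNNGCAA, a form of the C/EBP site, in 3 (7.5%, against 8.30%). Of members with a promoter, 26 were at least 2 times higher in A2780 OlaR, and 14 of these held an E2F form, as did 3 of the other 14. CCAAT went the other way, in 15 of the 26 and 11 of the other 14. The C/EBP form was in 2 of the 26 and 1 of the other 14. The promoters of MCM2, MCM3, MCM6, MCM7, PCNA, CDC6, GINS1 and POLA1 were among the E2F matches. Those of ORC2, ORC4 and ORC5 held no E2F form. The same was true of ORC1, GMNN, CDC45 and RRM2, among others that were at least 2 times higher in A2780 OlaR. Promoters are shown for members with the largest fold changes, 5′ to 3′ on the strand of the gene, with the matches named in the text in capitals. GINS2 (chr16:85688955-85689204, minus strand) and CDT1 (chr16:88803539-88803788, plus strand) are shown from 250 bases before the RefSeq start up to it:
GINS2: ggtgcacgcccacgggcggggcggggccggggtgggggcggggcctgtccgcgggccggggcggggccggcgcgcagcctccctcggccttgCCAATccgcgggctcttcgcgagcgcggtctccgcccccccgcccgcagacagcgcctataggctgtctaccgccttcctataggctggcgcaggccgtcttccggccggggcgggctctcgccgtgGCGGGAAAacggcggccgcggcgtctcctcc
CDT1: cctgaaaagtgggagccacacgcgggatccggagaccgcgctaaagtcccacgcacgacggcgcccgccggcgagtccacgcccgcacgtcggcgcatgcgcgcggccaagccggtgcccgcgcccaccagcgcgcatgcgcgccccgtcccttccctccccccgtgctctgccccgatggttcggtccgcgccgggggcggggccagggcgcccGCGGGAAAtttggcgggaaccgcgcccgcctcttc
In GINS2 the E2F form began 31 bases before the start and the CCAAT match 158 bases before it, and in CDT1 the E2F form began 35 bases before the start. For CDC45 (plus strand) and POLE2 (minus strand), windows of 30 bases around matches are shown, at chr22:19479796-19479825 and chr22:19479864-19479893 for 2 of the 4 CCAAT matches of CDC45, which begin 112 and 44 bases before its start, and at chr14:49688201-49688230 for the E2F form that begins 5 bases before the start of POLE2:
CDC45, 112 before: taatggccgcctCCAATgtggcccaatcag
CDC45, 44 before: gtgatccctggaCCAATcggaggagccgtg
POLE2: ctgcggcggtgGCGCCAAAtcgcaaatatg
The first CDC45 window also holds another CCAAT match, in lower case. Windows are shown where no stretch of 100 bases before the RefSeq start was free of annotated exons. The GINS2 stretch and the windows of CDC45 and POLE2 lie inside the GENCODE spans of these genes. They precede the RefSeq start only, not every annotated start. A match describes these letters and is no evidence of binding. MCM4 and POLD3 were not matched in the promoter table.

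Replication genes were expressed in every group, at their lowest in A2780. The median of the members' mean FPKM was 41.1 in shCON, 35.2 in shCEBPB and 44.7 in A2780 OlaR, but 17.8 in A2780. In rank among all genes, the median member stood at percentile 82.8 in shCON, 78.2 in shCEBPB, 84.2 in A2780 OlaR and 59.8 in A2780. Summed over all 46 members, FPKM was 2465 to 2607 in shCON, 2359 to 2526 in shCEBPB, 973 to 1002 in A2780 and 2643 to 2756 in A2780 OlaR. A2780 had the lowest mean of the 4 groups for 38 of the 46 members, and for 35 of these no A2780 library reached the lowest library of any other group. The highest mean was in A2780 OlaR for 18 members, in shCEBPB for 13, in shCON for 12 and in A2780 for 3 (ORC2, ORC4 and POLD4). In bulk RNA, fewer cells in S phase and less mRNA per cell cannot be told apart. The most abundant member was PCNA in shCON and A2780 OlaR, MCM7 in shCEBPB and POLD2 in A2780.

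In the libraries titled A2780 OlaR, replication genes were higher than in those titled A2780 almost throughout. Of the 46 members, 41 were higher in A2780 OlaR and 4 lower at an adjusted p under 0.05, and 1 (POLD2) was not called. Of all 12458 genes tested, 40.1% were called higher and 49.7% lower (89.8% in all). By size, 30 of 46 were higher with a fold change of at least 2 and 0 were lower, against 15.5% and 20.1% of all genes (35.7% together). Libraries of A2780 and A2780 OlaR were fully separated for 40 members that were higher (background 32.8%) and for the 4 that were lower (background 41.3%, 74.1% in either direction). The median log2 fold change of the members was 1.48.

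Between shCEBPB and shCON the members were divided. There were 17 higher, 25 lower and 4 not called (MCM3, RFC2, RFC3 and RRM1), against 38.9% of 12006 genes called higher and 45.7% lower (84.7% in all). By size, 3 members were higher (RPA1, POLA1 and POLD2) and 3 lower (POLE2, GINS1 and ORC6) with a fold change of at least 2, against 12.7% and 16.7% of all genes (29.5% together). Libraries did not overlap for 11 members that were higher and 17 that were lower, where the background was 29.3% and 36.7% (66.0% together). The median was -0.16. Most complexes held subunits that were higher and subunits that were lower.

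**Figure D1:**
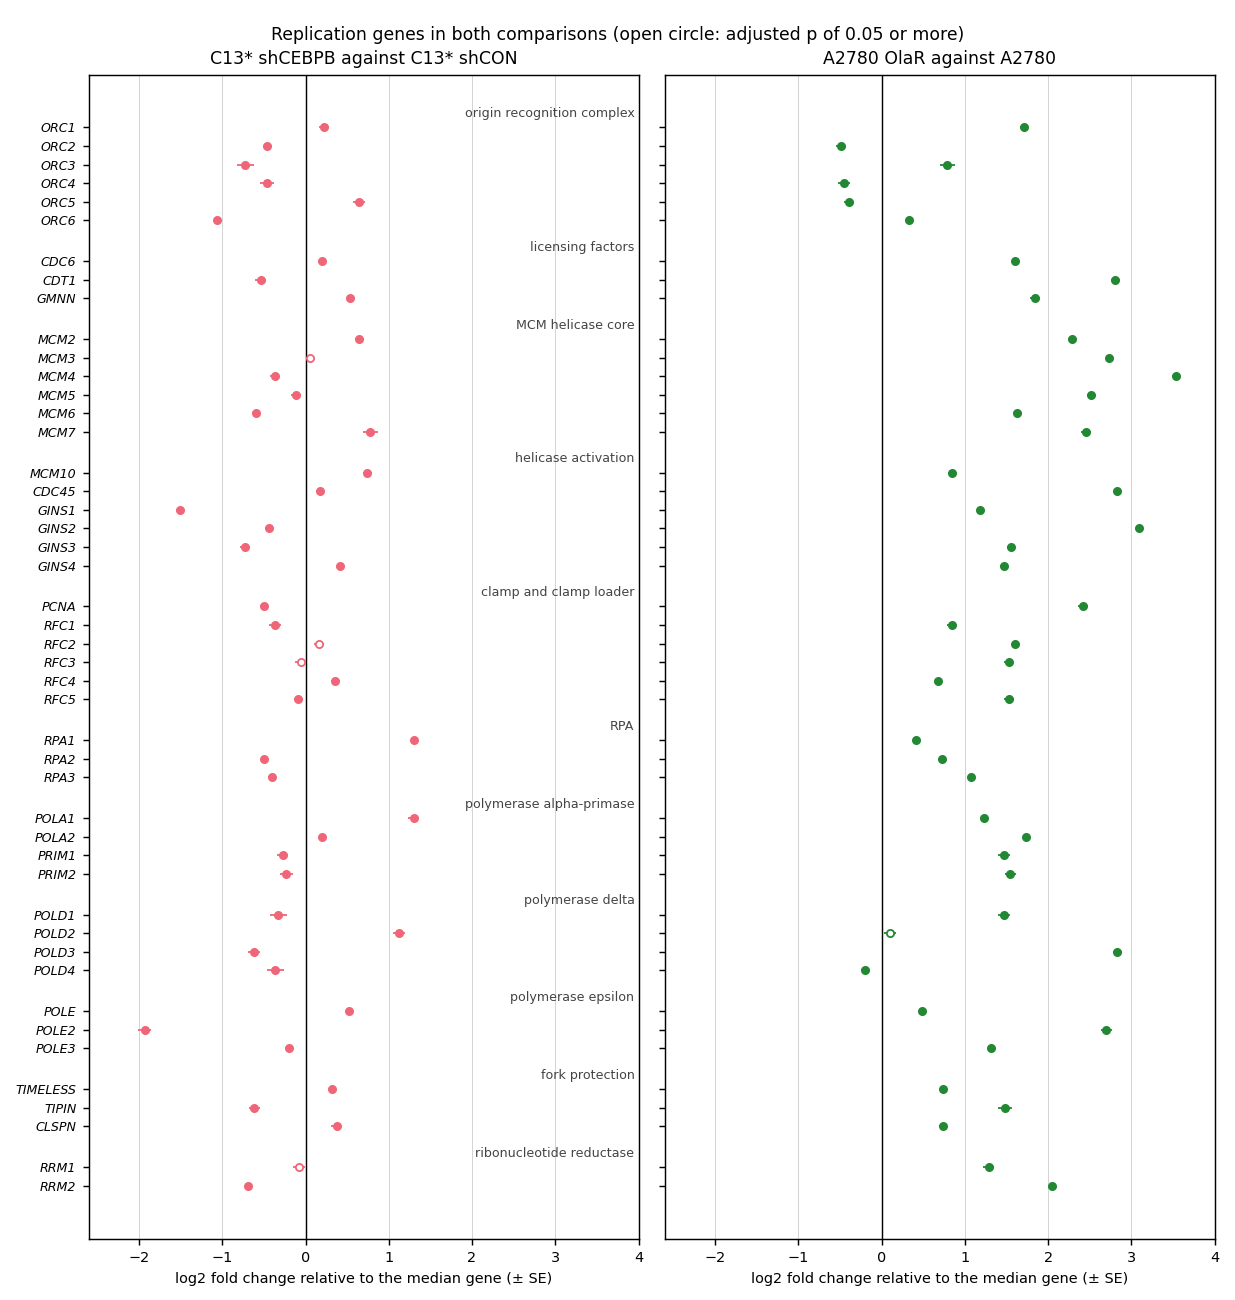
Log2 fold change relative to the median gene (x axis, error bars ± SE) of each of the 46 members, grouped by role, in shCEBPB against shCON (left) and A2780 OlaR against A2780 (right). Open circles mark members not called. Points lie on both sides of 0 on the left, and nearly all lie above 0 on the right, up to 3.53 for MCM4.

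The origin recognition complex marks the places where replication may begin, and in A2780 OlaR its subunits were divided, with 3 higher and 3 lower. ORC1, the subunit that is degraded and made anew in each cycle, lay at 14.8 to 18 FPKM (median 16.8) in shCON, 16.1 to 20.8 (17.9) in shCEBPB, 5.16 to 6.55 (5.7) in A2780 and 17.9 to 20.6 (19.4) in A2780 OlaR. All A2780 libraries lay below the others, which overlapped. ORC1 had a log2 fold change of 1.70 ± 0.047 (adjusted p = 5.02e-17) in A2780 OlaR and 0.22 ± 0.060 (adjusted p = 0.0256) in shCEBPB. The call in shCEBPB was lost in some alternatives, with 0.44 in libraries 1 to 3 and 0.09 in 4 to 8. ORC2, a core subunit, lay at 16.3 to 19.2 FPKM (median 17.6) in shCON, 10.7 to 13.4 (12.3) in shCEBPB, 22.1 to 26.3 (24.4) in A2780 and 13.2 to 17.7 (15.3) in A2780 OlaR. ORC2 had a log2 fold change of -0.49 ± 0.057 (adjusted p = 5.83e-09) in A2780 OlaR and -0.46 ± 0.054 (adjusted p = 5.93e-08) in shCEBPB, and A2780 did not overlap with any other group. In A2780 OlaR the difference was -0.29 in libraries 1 to 3 and -0.61 in 4 to 8. ORC4, a core subunit with an ATP-binding fold, lay at 5.1 to 6.79 FPKM (median 6.03) in shCON, 3.3 to 5.19 (3.59) in shCEBPB, 8.77 to 11.3 (9.09) in A2780 and 5.01 to 7.29 (5.73) in A2780 OlaR, again highest in A2780. ORC4 had a log2 fold change of -0.45 ± 0.073 (adjusted p = 4.93e-07) in A2780 OlaR and -0.46 ± 0.082 (adjusted p = 1.16e-05) in shCEBPB, and its shCON and shCEBPB libraries overlapped. It was -0.19 in libraries 1 to 3 and -0.60 in 4 to 8 in A2780 OlaR, and -0.23 in libraries 1 to 3 and -0.59 in 4 to 8 in shCEBPB. ORC5, its neighbour in the core, lay at 15.8 to 19.9 FPKM (median 18.6) in shCON, 23.5 to 34 (27.5) in shCEBPB, 21.1 to 26.5 (23.1) in A2780 and 13.5 to 18.3 (16) in A2780 OlaR. ORC5 had a log2 fold change of -0.39 ± 0.062 (adjusted p = 2.36e-07) in A2780 OlaR and 0.64 ± 0.070 (adjusted p = 4.69e-07) in shCEBPB and was the only member called higher in shCEBPB and lower in A2780 OlaR. In A2780 OlaR the difference was -0.16 in libraries 1 to 3 and -0.53 in 4 to 8, and -0.21 after correction for GC content and gene length.

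ORC6, the smallest and most loosely bound subunit, lay at 63.7 to 71.3 FPKM (median 65.4) in shCON, 26.7 to 32 (29.9) in shCEBPB, 43.5 to 49.6 (46.5) in A2780 and 49.5 to 58.4 (54.1) in A2780 OlaR. The shCEBPB libraries were lowest and shCON highest, without overlap, and the ranges of A2780 and A2780 OlaR overlapped. ORC6 had a log2 fold change of 0.33 ± 0.040 (adjusted p = 5.65e-05) in A2780 OlaR and -1.06 ± 0.041 (adjusted p = 1.57e-14) in shCEBPB. ORC3, which pairs with ORC2, lay at 21.9 to 29.5 FPKM (median 25.2) in shCON, 12 to 19.5 (13) in shCEBPB, 14.1 to 18.5 (14.5) in A2780 and 20.3 to 30.8 (23.2) in A2780 OlaR, with shCEBPB and A2780 overlapping at the low end. ORC3 had a log2 fold change of 0.79 ± 0.092 (adjusted p = 1.26e-06) in A2780 OlaR and -0.72 ± 0.10 (adjusted p = 1.22e-06) in shCEBPB. Its fold change in shCEBPB was -0.33 in libraries 1 to 3 and -0.95 in 4 to 8.

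The licensing factors were higher in A2780 OlaR, all 3 with a fold change of at least 2. CDT1, which brings the MCM ring to the origin, lay at 61.6 to 71.1 FPKM (median 67.1) in shCON, 34 to 47.7 (44.6) in shCEBPB, 9.25 to 11.8 (10.7) in A2780 and 67.1 to 83.2 (74.5) in A2780 OlaR. The A2780 libraries were lowest and the shCEBPB libraries next, with no overlap between shCON and shCEBPB. CDT1 had a log2 fold change of 2.80 ± 0.055 (adjusted p = 9.73e-20) in A2780 OlaR and -0.54 ± 0.065 (adjusted p = 1.12e-07) in shCEBPB. In shCEBPB it was -0.96 after correction for GC content and gene length. Geminin, the inhibitor of CDT1, was higher in both comparisons. GMNN lay at 54.7 to 63 FPKM (median 58.3) in shCON, 74.7 to 87.1 (82.5) in shCEBPB, 15.9 to 22.4 (17.8) in A2780 and 56.4 to 67.7 (62.1) in A2780 OlaR. GMNN had a log2 fold change of 1.84 ± 0.063 (adjusted p = 1.47e-15) in A2780 OlaR and 0.54 ± 0.043 (adjusted p = 1.19e-08) in shCEBPB. The ratio of CDT1 to GMNN in FPKM had medians of 1.13 in shCON, 0.531 in shCEBPB, 0.629 in A2780 and 1.2 in A2780 OlaR, and ranged from 0.39 to 0.638 over the shCEBPB and 0.977 to 1.3 over the shCON libraries. CDC6, the ATPase that completes the loading site, lay at 39.8 to 43.4 FPKM (median 40.5) in shCON, 41.2 to 53.1 (45.2) in shCEBPB, 15.4 to 17.7 (16.7) in A2780 and 43.7 to 52.5 (48.3) in A2780 OlaR. CDC6 had a log2 fold change of 1.60 ± 0.045 (adjusted p = 5.18e-17) in A2780 OlaR and 0.19 ± 0.050 (adjusted p = 0.0239) in shCEBPB, and its shCON and shCEBPB libraries overlapped. The latter call was lost in some alternatives, at 0.04 under quantile normalization.

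The MCM ring is the motor of the replicative helicase, and 6 of its 6 subunits were at least 2 times higher in A2780 OlaR. MCM4 had the largest difference of the whole set. It lay at 120.5 to 140.0 FPKM (median 131) in shCON, 87.1 to 106 (92.2) in shCEBPB, 10.9 to 13.1 (12.3) in A2780 and 127 to 151 (137) in A2780 OlaR. MCM4 had a log2 fold change of 3.53 ± 0.043 (adjusted p = 4.07e-23) in A2780 OlaR and -0.37 ± 0.054 (adjusted p = 7.12e-07) in shCEBPB, without overlap in either comparison. The difference in shCEBPB was -0.19 in libraries 1 to 3 and -0.46 in 4 to 8. MCM3 lay at 122 to 129 FPKM (median 126) in shCON, 122 to 129 (124) in shCEBPB, 21.9 to 24.2 (22.7) in A2780 and 135 to 151 (148) in A2780 OlaR. The ranges of shCON and shCEBPB overlapped almost entirely. MCM3 had a log2 fold change of 2.73 ± 0.033 (adjusted p = 4.94e-23) in A2780 OlaR and 0.05 ± 0.030 (adjusted p = 0.655) in shCEBPB, and it was not called in shCEBPB. MCM5, which forms the gate of the ring together with MCM2, lay at 78.3 to 86.5 FPKM (median 85.4) in shCON, 62.8 to 84.6 (77) in shCEBPB, 16 to 20.2 (18.6) in A2780 and 93.4 to 114 (102) in A2780 OlaR. MCM5 had a log2 fold change of 2.52 ± 0.052 (adjusted p = 2.87e-19) in A2780 OlaR and -0.12 ± 0.063 (adjusted p = 0.0136) in shCEBPB, and the latter call was lost in some alternatives, with -0.28 in libraries 1 to 3 and -0.001 in 4 to 8.

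MCM7 and MCM2 were higher in shCEBPB, unlike MCM4 and MCM6. MCM7 lay at 142 to 159 FPKM (median 154) in shCON, 198 to 295 (266) in shCEBPB, 32.1 to 39.3 (36.3) in A2780 and 164 to 205 (189) in A2780 OlaR. MCM7 had a log2 fold change of 2.45 ± 0.055 (adjusted p = 1.09e-18) in A2780 OlaR and 0.78 ± 0.086 (adjusted p = 4.53e-07) in shCEBPB. In shCEBPB its difference from shCON was 0.50 in libraries 1 to 3 and 0.96 in 4 to 8. Of its exons, 392 bases lie opposite AP4M1. MCM2 lay at 104 to 112 FPKM (median 108) in shCON, 141 to 180.2 (167) in shCEBPB, 24.7 to 29 (28.1) in A2780 and 115 to 139 (127) in A2780 OlaR. MCM2 had a log2 fold change of 2.29 ± 0.050 (adjusted p = 5.88e-19) in A2780 OlaR and 0.65 ± 0.053 (adjusted p = 9.45e-09) in shCEBPB, with no overlap in either comparison. MCM6 lay at 68.1 to 76.9 FPKM (median 71.3) in shCON, 40.2 to 51.8 (43.6) in shCEBPB, 24.6 to 27.8 (25.1) in A2780 and 68.9 to 81 (74.2) in A2780 OlaR, lower in shCEBPB without overlap. MCM6 had a log2 fold change of 1.63 ± 0.038 (adjusted p = 3.14e-18) in A2780 OlaR and -0.60 ± 0.051 (adjusted p = 1.09e-09) in shCEBPB. The subunits make up the ring in equal number, but their mean FPKM were spread unequally. These are mRNA values, which do not give the amounts of the protein subunits. The highest exceeded the lowest 2.13 times in shCON, 2.50 times in A2780 OlaR, 2.96 times in A2780 and 5.64 times in shCEBPB. Over the shCEBPB libraries the ratio of MCM7 to MCM6 ranged from 3.81 to 7.15. MCM6 was the lowest of them in 3 groups and MCM4 in A2780.

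**Figure D2:**
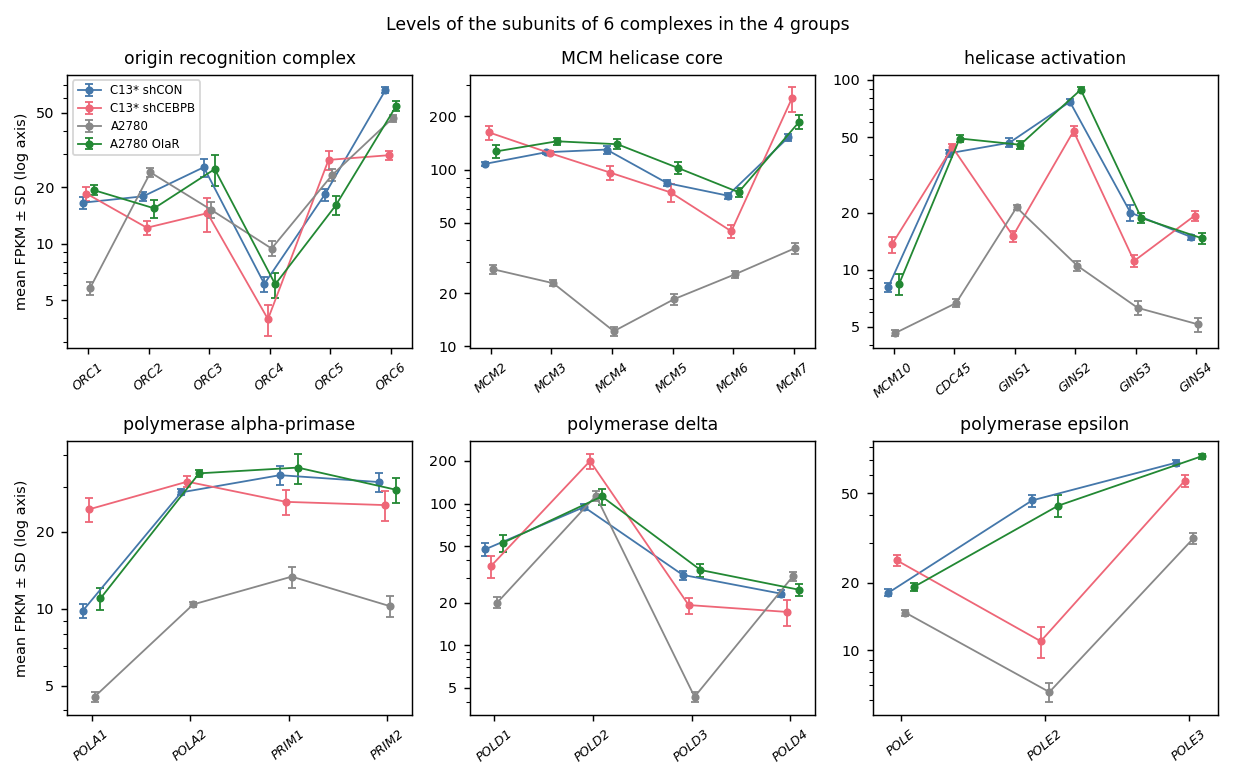
Mean FPKM (log axis, error bars SD) of the subunits of several complexes in the 4 groups. The lines of shCON and A2780 OlaR run close to each other. In A2780, MCM4, POLD3 and POLE2 dip below their partners (12.2, 4.33 and 6.51 FPKM). In shCEBPB POLE2 does so too (11.0 FPKM), while GINS1 lies at 15.1 FPKM against 53.7 for GINS2.

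Helicase activation turns the loaded ring into a working fork, and all 6 factors were higher in A2780 OlaR. GINS2 lay at 73.6 to 80.7 FPKM (median 76) in shCON, 49 to 58.6 (53.8) in shCEBPB, 9.56 to 11.4 (10.5) in A2780 and 83.5 to 93 (88.9) in A2780 OlaR. Each pair of groups was separated, with A2780 OlaR at the top and A2780 at the bottom. GINS2 had a log2 fold change of 3.09 ± 0.037 (adjusted p = 3.73e-23) in A2780 OlaR and -0.44 ± 0.042 (adjusted p = 2.96e-09) in shCEBPB. CDC45, which joins MCM and GINS into the active helicase, lay at 37.3 to 43.2 FPKM (median 40.9) in shCON, 40.5 to 47 (43.9) in shCEBPB, 6.15 to 7.19 (6.72) in A2780 and 46.7 to 52.4 (49.5) in A2780 OlaR. CDC45 had a log2 fold change of 2.83 ± 0.034 (adjusted p = 4.93e-23) in A2780 OlaR and 0.17 ± 0.041 (adjusted p = 0.0233) in shCEBPB, and the small difference in shCEBPB was not called in some alternatives. GINS1, a partner of GINS2 in the same 4-part complex, lay at 41.5 to 49.5 FPKM (median 47.1) in shCON, 13.4 to 16.6 (15.2) in shCEBPB, 20.6 to 22.1 (21.2) in A2780 and 41.9 to 48 (45.4) in A2780 OlaR, so here shCEBPB and not A2780 was lowest. GINS1 had a log2 fold change of 1.18 ± 0.032 (adjusted p = 6.72e-17) in A2780 OlaR and -1.50 ± 0.049 (adjusted p = 1.3e-15) in shCEBPB.

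GINS3 lay at 17.9 to 23.3 FPKM (median 19.5) in shCON, 9.91 to 12 (11.3) in shCEBPB, 5.66 to 7.28 (6.2) in A2780 and 17.7 to 20.7 (18.2) in A2780 OlaR. GINS3 had a log2 fold change of 1.56 ± 0.050 (adjusted p = 5.11e-16) in A2780 OlaR and -0.73 ± 0.058 (adjusted p = 4.8e-10) in shCEBPB, and both comparisons were free of overlap. GINS4 lay at 14.1 to 15.4 FPKM (median 15.1) in shCON, 17.4 to 20.7 (19.6) in shCEBPB, 4.8 to 6.05 (4.96) in A2780 and 12.9 to 16.3 (14.5) in A2780 OlaR. Unlike the other GINS genes, GINS4 was higher in shCEBPB than in shCON. GINS4 had a log2 fold change of 1.47 ± 0.050 (adjusted p = 1.76e-15) in A2780 OlaR and 0.42 ± 0.042 (adjusted p = 4.05e-07) in shCEBPB. The GINS subunits work in equal number, yet the ratio of GINS1 to GINS2 mRNA had medians of 0.614 in shCON, 0.284 in shCEBPB, 2.06 in A2780 and 0.509 in A2780 OlaR. Amounts of the proteins cannot be read from it. MCM10, a scaffold that is needed for the helicase to start, lay at 7.25 to 8.79 FPKM (median 8.1) in shCON, 12.3 to 15.5 (12.8) in shCEBPB, 4.39 to 4.79 (4.68) in A2780 and 6.91 to 10.1 (8.19) in A2780 OlaR. MCM10 had a log2 fold change of 0.85 ± 0.057 (adjusted p = 3.05e-10) in A2780 OlaR and 0.74 ± 0.058 (adjusted p = 4.48e-09) in shCEBPB, less than a fold change of 2 in either.

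The clamp PCNA holds polymerases on DNA, and the RFC loader, 1 large and 4 small subunits, opens it. PCNA was among the most abundant members. It lay at 224 to 271 FPKM (median 256) in shCON, 153 to 184 (168) in shCEBPB, 47.1 to 65.2 (51.8) in A2780 and 249 to 297 (264) in A2780 OlaR. A2780 lay lowest and shCEBPB next, and shCON and A2780 OlaR overlapped. PCNA had a log2 fold change of 2.42 ± 0.057 (adjusted p = 2.62e-18) in A2780 OlaR and -0.50 ± 0.051 (adjusted p = 1.12e-08) in shCEBPB. Several processed pseudogenes are named after it (PCNAP1, PCNAP3 and PCNAP4), and how their reads were counted is not given in the sources used here. RFC2, a small subunit, lay at 16.5 to 18.3 FPKM (median 17.3) in A2780 and at 46.6 to 52.9 (49.9) in A2780 OlaR. RFC2 had a log2 fold change of 1.60 ± 0.031 (adjusted p = 1.94e-19) in A2780 OlaR and 0.16 ± 0.065 (adjusted p = 0.168) in shCEBPB. RFC3 lay at 16.2 to 18.7 FPKM (median 17.1) in A2780 and at 40.7 to 53.9 (45.8) in A2780 OlaR. RFC3 had a log2 fold change of 1.53 ± 0.056 (adjusted p = 6.27e-15) in A2780 OlaR and -0.05 ± 0.067 (adjusted p = 0.107) in shCEBPB. In shCEBPB it was called higher after correction for GC content and gene length, at 0.11 (adjusted p = 0.00453), and lower under quantile normalization, at -0.20 (adjusted p = 0.0142), and in libraries 4 to 8, at -0.16 (adjusted p = 0.00255). RFC5 lay at 12.2 to 14.7 FPKM (median 13.1) in A2780 and at 32.2 to 42.4 (36) in A2780 OlaR, like RFC2 and RFC3 without overlap. RFC5 had a log2 fold change of 1.53 ± 0.058 (adjusted p = 9.08e-15) in A2780 OlaR and -0.09 ± 0.051 (adjusted p = 0.0107) in shCEBPB, and of all members called it was the only one whose sign in shCEBPB turned in an alternative. RFC4 and the large subunit RFC1 were higher in A2780 OlaR by less. RFC4 had a median of 44.2 FPKM in shCON, 54.9 in shCEBPB, 31.7 in A2780 and 47.8 in A2780 OlaR. RFC4 had a log2 fold change of 0.68 ± 0.045 (adjusted p = 4.73e-10) in A2780 OlaR and 0.36 ± 0.051 (adjusted p = 4.35e-05) in shCEBPB, the latter 0.21 under quantile normalization. RFC1 had a median of 34.4 FPKM in shCON, 24 in shCEBPB, 21.2 in A2780 and 34.1 in A2780 OlaR. RFC1 had a log2 fold change of 0.84 ± 0.059 (adjusted p = 6.3e-10) in A2780 OlaR and -0.37 ± 0.075 (adjusted p = 3.86e-05) in shCEBPB. In shCEBPB, RFC1 was -0.11 in libraries 1 to 3 and -0.52 in 4 to 8, and RFC5 was 0.07 in libraries 1 to 3 and -0.17 in 4 to 8.

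RPA, a complex of 3 subunits that protects single-stranded DNA, was higher in A2780 OlaR, with 0 of its subunits at a fold change of 2 before the shift by the median, and was split in shCEBPB. RPA1, the large DNA-binding subunit, lay at 26.8 to 31.8 FPKM (median 29.7) in shCON, 67.5 to 75 (70.7) in shCEBPB, 25.9 to 28.8 (28) in A2780 and 33.1 to 34.9 (33.8) in A2780 OlaR. Every shCEBPB library was above all others. RPA1 had a log2 fold change of 0.41 ± 0.030 (adjusted p = 1.9e-08) in A2780 OlaR and 1.30 ± 0.039 (adjusted p = 1.59e-15) in shCEBPB. It shared the largest rises in shCEBPB with POLA1 and POLD2, and their order changed between alternatives. RPA2, the subunit phosphorylated under replication stress, lay at 58.3 to 63.2 FPKM (median 61.1) in shCON and at 38.2 to 45.1 (40.6) in shCEBPB. RPA2 had a log2 fold change of 0.72 ± 0.029 (adjusted p = 1.07e-13) in A2780 OlaR and -0.50 ± 0.038 (adjusted p = 1.24e-10) in shCEBPB. RPA3, the small subunit, lay at 32 to 40.2 FPKM (median 34.6) in shCON and at 23.9 to 27.3 (24.4) in shCEBPB. RPA3 had a log2 fold change of 1.08 ± 0.044 (adjusted p = 5.08e-14) in A2780 OlaR and -0.41 ± 0.047 (adjusted p = 3.59e-08) in shCEBPB. RPA2 and RPA3 were lower in shCEBPB while RPA1 was higher. The ratio of RPA1 to RPA2 had medians of 0.487 in shCON, 1.74 in shCEBPB, 0.722 in A2780 and 0.584 in A2780 OlaR.

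Polymerase alpha-primase starts each new strand, and its 4 subunits were higher in A2780 OlaR, each with a fold change of at least 2. POLA1, the catalytic subunit, lay at 8.99 to 10.7 FPKM (median 9.83) in shCON, 21.4 to 29.2 (23.7) in shCEBPB, 4.09 to 4.77 (4.56) in A2780 and 9.83 to 12.6 (10.7) in A2780 OlaR. The shCEBPB libraries were highest and A2780 lowest, without overlap, and shCON and A2780 OlaR overlapped. POLA1 had a log2 fold change of 1.23 ± 0.052 (adjusted p = 7.67e-14) in A2780 OlaR and 1.30 ± 0.063 (adjusted p = 2.11e-12) in shCEBPB. POLA2, its accessory subunit, lay at 10.1 to 10.9 FPKM (median 10.4) in A2780 and at 32.1 to 35.4 (34) in A2780 OlaR. POLA2 had a log2 fold change of 1.73 ± 0.029 (adjusted p = 1.55e-20) in A2780 OlaR and 0.20 ± 0.038 (adjusted p = 0.0035) in shCEBPB. Part of its exons (2012 bases) is shared with a gene on the same strand. PRIM1, the primase that makes the RNA primer, lay at 12.3 to 15.6 FPKM (median 12.9) in A2780 and at 30.7 to 42.6 (33.5) in A2780 OlaR. PRIM1 had a log2 fold change of 1.47 ± 0.072 (adjusted p = 7.05e-13) in A2780 OlaR and -0.27 ± 0.067 (adjusted p = 0.000157) in shCEBPB. PRIM2, its regulatory partner, lay at 8.97 to 11.9 FPKM (median 10.0) in A2780 and at 25.2 to 33.7 (29.3) in A2780 OlaR. PRIM2 had a log2 fold change of 1.55 ± 0.065 (adjusted p = 5.16e-14) in A2780 OlaR and -0.23 ± 0.079 (adjusted p = 0.00214) in shCEBPB. In shCEBPB the calls of POLA2, PRIM1 and PRIM2 were lost in some alternatives. There PRIM1 was -0.08 in libraries 1 to 3 and -0.38 in 4 to 8, and PRIM2 was -0.04 in libraries 1 to 3 and -0.33 in 4 to 8.

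Polymerase delta copies the lagging strand, and its subunits went in different directions. POLD3, an accessory subunit, lay at 29 to 34.4 FPKM (median 31.7) in shCON, 15.7 to 22.5 (19.7) in shCEBPB, 3.88 to 4.94 (4.37) in A2780 and 29.7 to 38.6 (33.4) in A2780 OlaR. The A2780 libraries were the lowest of all, at levels where log2(FPKM + 1) understates a ratio. POLD3 had a log2 fold change of 2.83 ± 0.059 (adjusted p = 2.49e-19) in A2780 OlaR and -0.62 ± 0.074 (adjusted p = 1.01e-07) in shCEBPB. In shCEBPB it was -0.40 in libraries 1 to 3 and -0.75 in 4 to 8. POLD2, which binds the catalytic subunit, lay at 87.6 to 101 FPKM (median 96.2) in shCON, 159 to 221 (213) in shCEBPB, 97.3 to 128 (115) in A2780 and 95 to 131 (110.3) in A2780 OlaR, with broad overlap of A2780 and A2780 OlaR and every shCEBPB library on top. POLD2 had a log2 fold change of 0.10 ± 0.070 (adjusted p = 0.793) in A2780 OlaR and 1.13 ± 0.073 (adjusted p = 1.74e-10) in shCEBPB. Its sign in A2780 OlaR turned in 4 of 14 alternatives, and it was called lower in libraries 1 to 3, at -0.19 (adjusted p = 4.68e-05), and higher in libraries 4 to 8, at 0.28 (adjusted p = 0.0255). POLD1, the catalytic subunit, lay at 42.2 to 53.7 FPKM (median 45.1) in shCON, 25.8 to 42.3 (39.9) in shCEBPB, 17.2 to 23 (20.3) in A2780 and 44.2 to 62.9 (53.7) in A2780 OlaR. POLD1 had a log2 fold change of 1.47 ± 0.077 (adjusted p = 1.76e-12) in A2780 OlaR and -0.33 ± 0.10 (adjusted p = 0.00193) in shCEBPB. Its difference between shCEBPB and shCON was -0.70 in libraries 1 to 3 and -0.07 in 4 to 8. POLD4, the smallest subunit, lay at 21.2 to 24.6 FPKM (median 23.5) in shCON, 13.1 to 22.3 (16.5) in shCEBPB, 27.9 to 34.1 (30.7) in A2780 and 22.3 to 27.7 (23.8) in A2780 OlaR, highest in A2780. POLD4 had a log2 fold change of -0.20 ± 0.055 (adjusted p = 2.65e-05) in A2780 OlaR and -0.36 ± 0.10 (adjusted p = 0.000815) in shCEBPB, and 650 of its exonic bases are shared with a gene on the same strand. POLD4 was -0.42 in libraries 1 to 3 and -0.06 in 4 to 8 in A2780 OlaR, and -0.58 in libraries 1 to 3 and -0.23 in 4 to 8 in shCEBPB. The ratio of POLD3 to POLD2 had medians of 0.342 in shCON, 0.0939 in shCEBPB, 0.0392 in A2780 and 0.303 in A2780 OlaR.

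Polymerase epsilon copies the leading strand. POLE2, its second subunit, showed the largest fall of any member in shCEBPB. It lay at 41.9 to 50.8 FPKM (median 46.1) in shCON, 8.73 to 13.6 (10.1) in shCEBPB, 5.25 to 7.31 (6.54) in A2780 and 37.5 to 50.3 (43.2) in A2780 OlaR. The shCON and A2780 OlaR libraries were high and overlapped, and those of shCEBPB and A2780 were low. POLE2 had a log2 fold change of 2.70 ± 0.067 (adjusted p = 5.17e-18) in A2780 OlaR and -1.93 ± 0.078 (adjusted p = 3.99e-14) in shCEBPB. POLE3, a histone-fold subunit, lay at 29 to 33.9 FPKM (median 31.2) in A2780 and at 69.8 to 76 (73) in A2780 OlaR. POLE3 had a log2 fold change of 1.31 ± 0.035 (adjusted p = 3.56e-17) in A2780 OlaR and -0.20 ± 0.042 (adjusted p = 1.3e-05) in shCEBPB, the latter -0.32 in libraries 1 to 3 and -0.11 in 4 to 8. POLE, the catalytic subunit, had a median of 17.9 FPKM in shCON, 25.3 in shCEBPB, 14.6 in A2780 and 19.2 in A2780 OlaR, and was highest in shCEBPB. POLE had a log2 fold change of 0.48 ± 0.033 (adjusted p = 3.38e-09) in A2780 OlaR and 0.52 ± 0.042 (adjusted p = 1.17e-08) in shCEBPB. The ratio of POLE2 to POLE was 2.21 to 2.87 over the shCON libraries and 1.88 to 2.8 over A2780 OlaR, but 0.339 to 0.536 over shCEBPB and 0.348 to 0.502 over A2780.

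The fork protection proteins travel with the helicase and pass on checkpoint signals. TIPIN lay at 21.8 to 25.9 FPKM (median 23.6) in shCON, 11.6 to 17.4 (14.9) in shCEBPB, 6.39 to 9.09 (7.22) in A2780 and 17.3 to 25.9 (21.3) in A2780 OlaR, with A2780 below every other group. TIPIN had a log2 fold change of 1.49 ± 0.084 (adjusted p = 6.45e-12) in A2780 OlaR and -0.61 ± 0.069 (adjusted p = 4.68e-08) in shCEBPB. TIMELESS, with which TIPIN forms a pair, had a median of 30.8 FPKM in shCON, 37.2 in shCEBPB, 24.5 in A2780 and 38.1 in A2780 OlaR. TIMELESS had a log2 fold change of 0.74 ± 0.027 (adjusted p = 2.08e-14) in A2780 OlaR and 0.32 ± 0.038 (adjusted p = 5.64e-06) in shCEBPB, so in shCEBPB it was higher while TIPIN was lower. There it was 0.19 under quantile normalization and 0.21 after correction for GC content and gene length. CLSPN, the claspin gene, had a median of 9.98 FPKM in shCON, 12.8 in shCEBPB, 6.0 in A2780 and 9.76 in A2780 OlaR. CLSPN had a log2 fold change of 0.73 ± 0.049 (adjusted p = 4.66e-10) in A2780 OlaR and 0.37 ± 0.065 (adjusted p = 0.00027) in shCEBPB. Ribonucleotide reductase makes the deoxynucleotides for DNA synthesis. RRM2, the subunit whose level follows S phase, lay at 78.9 to 83.2 FPKM (median 81) in shCON, 42.5 to 51.6 (48.1) in shCEBPB, 18 to 19.6 (18.6) in A2780 and 66.3 to 81.5 (75.8) in A2780 OlaR. The shCEBPB libraries lay below both shCON and A2780 OlaR, and A2780 lay lowest. RRM2 had a log2 fold change of 2.05 ± 0.040 (adjusted p = 1.07e-19) in A2780 OlaR and -0.69 ± 0.039 (adjusted p = 3.12e-12) in shCEBPB. RRM1, the large catalytic subunit, lay at 55.2 to 71.3 FPKM (median 59.6) in A2780 and at 121 to 159 (129) in A2780 OlaR. RRM1 had a log2 fold change of 1.28 ± 0.067 (adjusted p = 2.4e-12) in A2780 OlaR and -0.08 ± 0.073 (adjusted p = 0.0681) in shCEBPB, and in shCEBPB its difference was 0.17 in libraries 1 to 3 and -0.22 in 4 to 8.

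The comparisons share no libraries, so the directions were set side by side. Of the 46 members, 22 (47.8%) were lower in shCEBPB and higher in A2780 OlaR, against 26.1% of the 11603 genes tested in both. A further 15 (32.6%, background 10.6%) were higher in both, among them MCM2, MCM7, CDC45, GMNN and POLA1. Both shares lay above their background, as 41 of the 46 members were higher in A2780 OlaR. Of these 41, 22 were lower, 15 higher and 4 not called in shCEBPB. Over all genes higher in A2780 OlaR, the counts were 3034, 1227 and 690. Lower therefore outnumbered higher by less among the members than among all genes. ORC2, ORC4 and POLD4 were lower in both (background 15.9%), and ORC5 alone was higher in shCEBPB and lower in A2780 OlaR (background 23.0%). RFC2, RRM1, MCM3 and RFC3 were called higher in A2780 OlaR but not called in shCEBPB (background 5.95%), and POLD2 was called higher in shCEBPB but not called in A2780 OlaR (background 3.82%). There were 0 members lower in 1 comparison and not called in the other, where the background was 4.78% for shCEBPB and 7.66% for A2780 OlaR. These shares count as descriptions, since the set was not drawn at random and shCON and A2780 OlaR had almost the same profile. Over the members, the group means of shCON and A2780 OlaR had an r of 0.992, and the largest difference between them was 0.31 on the log2(FPKM + 1) scale, in TIMELESS. The median absolute difference over the members was 0.12 between shCON and A2780 OlaR, 0.44 between shCON and shCEBPB and 1.40 between A2780 and A2780 OlaR, where it was 0.65 over all genes.

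Other genes of replication and of the cell cycle were counted from lists. Of 39 other replication genes (chromatin assembly, Okazaki fragment processing, nucleotide supply and kinases), 31 were higher in A2780 OlaR, 5 lower and 3 not called, with a median of 1.11. Over all genes tested 40.1% were called higher and 49.7% lower in A2780 OlaR, and 38.9% and 45.7% in shCEBPB, which is the background of each list here. The largest differences were in DSCC1, a subunit of an alternative clamp loader, at 2.88 ± 0.078 (adjusted p = 1.95e-17), and in TK1, thymidine kinase, at 2.86 ± 0.082 (adjusted p = 4.98e-17). In shCEBPB, 11 of the 39 were higher, 17 lower and 11 not called, with a median of -0.04, and neither share exceeded that background. The largest differences were in WDHD1, which links polymerase alpha to the helicase, at -1.94 ± 0.072 (adjusted p = 1.04e-14), DSCC1 at -1.78 ± 0.072 (adjusted p = 3.72e-14) and DBF4, which activates the kinase CDC7, at 1.73 ± 0.081 (adjusted p = 1.09e-12). DBF4 went the other way in A2780 OlaR, at -1.25 ± 0.086 (adjusted p = 1.02e-11).

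Of 13 genes of the E2F and RB family, 8 were higher and 5 lower in A2780 OlaR. TFDP1, the partner of E2F proteins, was at 2.34 ± 0.040 (adjusted p = 1.21e-20) and RBL2, an RB relative, at 1.91 ± 0.059 (adjusted p = 2.29e-16). E2F1 followed at 1.84 ± 0.078 (adjusted p = 5.09e-14). In shCEBPB, 6 were higher and 6 lower, with the largest differences in E2F3 at 1.49 ± 0.069 (adjusted p = 9.35e-13), RBL2 at -1.36 ± 0.058 (adjusted p = 7.03e-14) and E2F8 at -1.30 ± 0.084 (adjusted p = 3.47e-11). Of 10 G1/S cyclins and kinases, 7 were higher and 1 lower in A2780 OlaR, and 5 higher and 4 lower in shCEBPB. Cyclin D2 (CCND2) led both, at 2.78 ± 0.044 (adjusted p = 3.07e-21) and -5.05 ± 0.037 (adjusted p = 1.79e-24), and lay at no more than 0.0174 FPKM in shCEBPB. Of 15 G2/M and mitosis markers, 13 were higher and 1 lower in A2780 OlaR, led by AURKA at 2.0 ± 0.031 (adjusted p = 2.98e-21) and MKI67 at 1.93 ± 0.050 (adjusted p = 1.42e-17). In shCEBPB, 2 were higher and 8 lower. Their summed FPKM was 1358 to 1513 in shCON, 1107 to 1350.0 in shCEBPB, 693 to 728 in A2780 and 1258 to 1472 in A2780 OlaR. Markers of dividing cells moved with the members in A2780 OlaR, and their part in the members' differences was not tested.

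On hg38 (GENCODE 44) the members named for their size of change lie at GINS2 (chromosome 16, 85676198 to 85690073, minus strand), CDT1 (chromosome 16, 88803789 to 88809258, plus strand), CDC45 (chromosome 22, 19479457 to 19520612, plus strand), POLD3 (chromosome 11, 74493851 to 74669117, plus strand), POLE2 (chromosome 14, 49643555 to 49688422, minus strand), GINS1 (chromosome 20, 25391008 to 25452700, plus strand), ORC6 (chromosome 16, 46689643 to 46698394, plus strand), RPA1 (chromosome 17, 1829702 to 1900082, plus strand) and POLA1 (chromosome X, 24693873 to 24996986, plus strand). Exons of 7 members share bases with a gene on the same strand, and those of 18 with a gene on the other strand. On the same strand the shared bases were 2012 in POLA2, 650 in POLD4, 579 in TIPIN and 501 in PRIM1. They were 426 in POLD1, 123 in POLD3 and 29 in MCM7. Pseudogenes are named after 9 members (ORC1, PCNA, RFC3, RFC5, RPA2, RPA3, POLD2, TIPIN and RRM2). Whether the authors counted by strand is not given in the sources used here.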

How the data were processed

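RNA of 31 samples (4 groups) was sequenced as 150-base read pairs and, per the submitters' processing notes and the study's methods, was aligned with TopHat to hg38 and counted with HTSeq. The authors deposited 1 table of FPKM values. The tool that made the FPKM, the annotation and the use of strand are not given in the sources used here, and no read totals accompany the values. Of 19225 rows, 4 with a repeated symbol were left out. Genes reaching FPKM 1 in at least the number of libraries of the smaller group were tested with limma 3.58.1 (R 4.3.3, lmFit, eBayes with trend, two-sided) on log2(FPKM + 1), with Benjamini-Hochberg adjustment over all genes tested and a threshold of 0.05. Fits held only the groups compared. Fitting was tested on simulated data. Lowest, median and highest library are given for the 5 largest rises and falls among members called and for those with a fold change of at least 2, and ranges or medians for other members. Other lists are given by counts and up to 3 genes of largest change. The members and lists were chosen with earlier results of these data known. Replicate numbers were not used as pairs in the main fits. Alternatives covered pseudocount, filter, scaling, GC content and length, samples fitted, replicate block, library ranges, test and threshold. Symbols were matched to GENCODE 44 for 18278 genes (95.1%), and 23 symbols had been turned into dates.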

Additional observations from a re-analysis of the deposited data

Results flagged for a closer look

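In 7 of 184 groups of member values, 1 library lay far from the others by Dixon's criterion, which chance alone passes in about 1 group of 20. In C13* shCON, ORC6 was highest in replicate 4, at 71.3 FPKM (the others 63.7 to 66.1), and RFC3 was highest in the same replicate, at 58.5 FPKM (the others 48.6 to 52.2). CDC45 was lowest in shCON replicate 7, at 37.3 FPKM (the others 40.6 to 43.2). GINS1 was lowest in shCON replicate 6, at 41.5 FPKM (the others 45.9 to 49.5). CDC6 was highest in shCEBPB replicate 3, at 53.1 FPKM (the others 41.2 to 46.3). In A2780, ORC3 was highest in replicate 8, at 18.5 FPKM (the others 14.1 to 16), and POLE2 was lowest in replicate 5, at 5.25 FPKM (the others 6.27 to 7.31).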

How the results depend on the processing

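In A2780 OlaR, all 45 members called kept direction and call in the 14 alternatives run. The members' median log2 fold change moved from 1.48 to 1.59 with a pseudocount of 0.1, to 1.60 with 0.01 and to 1.61 in libraries 1 to 3, against 1.39 in libraries 4 to 8 and 1.38 without a filter. In shCEBPB, 34 of 42 kept both in 16 alternatives. ORC1, CDC6, MCM5, CDC45, RFC5, POLA2, PRIM1 and PRIM2 were not called in some, and RFC5 changed sign. The median moved from -0.16 to -0.31 under quantile normalization, with 14 higher and 28 lower, and was -0.06 in libraries 1 to 3 and -0.16 in 4 to 8. The cause was not tested. Quantile normalization also moved MCM5 to -0.31, RFC5 to -0.23, POLE3 to -0.37, POLA2 to 0.08 and CDC45 to 0.01, and the correction for GC content and length moved POLD1 to -0.54, ORC4 to -0.29, MCM5 to -0.24, PRIM1 to -0.17, PRIM2 to -0.13 and CDC45 to 0.07. Of members not called in shCEBPB, MCM3 was called lower under quantile normalization (-0.13) and higher after the correction (0.05), RRM1 lower under quantile normalization (-0.24) and in libraries 4 to 8, and RFC2 higher under median-ratio scaling. Deviations of libraries with the same replicate number had a mean r of -0.15 in C13* (single values -0.51 to 0.46) and -0.23 in A2780 (-0.59 to 0.12). The numbers were therefore not treated as pairs. Some members stepped in level between libraries 1 to 3 and 4 to 8. POLD1 in shCEBPB lay at 25.8 to 30.6 and 39.9 to 42.3 FPKM, and ORC3 in A2780 OlaR at 30.2 to 30.8 and 20.3 to 24.1. The main p-values treat the libraries as independent. With the replicate block, 15 members were higher and 25 lower in shCEBPB (median -0.17), and 41 and 4 in A2780 OlaR (median 1.48). With the block and the correction for GC content and length, chosen after seeing the data, these were 17 and 23 (median -0.15), and 41 and 4 (median 1.42). Without shCON replicate 1, 16 were higher and 25 lower. Other groups were not refitted without single replicates, since each holds more than 5. Absolute depth is unknown, so counting error cannot be given for low members such as POLD3 in A2780.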
